A study of Mus musculus with 8 samples.

Results

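The genes described here are 9 members of the PI3K, AKT, mTOR and FoxO signalling route, namely Pik3ca, Pik3cd, Pik3r1, Inpp5d, Akt1, Tsc1, Mtor, Foxo1 and Foxo3. They were picked by symbol out of the 37980 Ensembl gene rows of an RNA-Seq table, and all 9 were found in it. The RNA came from multipotent progenitors (MPPs) of mouse bone marrow, blood-forming cells that give rise to all blood lineages but normally sustain them for a limited time. The cells were sorted as Lin-CD48-ckit+Sca1+CD135+CD150-, with 1000 cells in each library, and the strain was C57BL/6. There were 4 libraries from NA mice (NA1 to NA4) and 4 from age-matched CD45.2 wild-type mice (WT1 to WT4). NA mice carried NUP98-HOXA10hd, a fusion of the nucleoporin NUP98 with the homeodomain of HOXA10, as an NA LSL/+ allele switched on by Vav-Cre, a recombinase made throughout the blood system, so that the fusion was not limited to MPPs. Whether the WT mice carried Vav-Cre, the ages, and whether each library came from a separate mouse were not given, so the p-values below measure the spread between libraries, which may be technical.

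PI3K enzymes are pairs of a catalytic and a regulatory subunit that act below receptors such as KIT and FLT3 and make the membrane lipid PIP3. PIP3 recruits the kinases PDK1 and AKT, and lipid phosphatases such as SHIP1 remove it. Active AKT inhibits the TSC complex, which releases the growth kinase mTOR, and it sends FoxO transcription factors out of the nucleus, which turns down genes of cell cycle arrest and of oxidative stress defence. In blood stem and progenitor cells the route is known for its part in the balance between quiescence and growth. These data hold messenger RNA levels alone, and the activity of the route is set largely by phosphorylation, which was not measured.

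Values are normalised counts, that is estimated read counts divided by a size factor for each library. The 8 libraries held an estimated 3876906 to 4916987 reads. Kit, Flt3 and Cd34, whose products define the gate or mark MPPs, were at 1103 to 3854 normalised counts in every library. Ly6a, the gene of the gate marker Sca1, was at 1482 to 1614 in WT and 1221 to 1408 in NA and was called lower (log2 difference -0.28, adjusted p = 0.0257, limma). Of the markers of other blood lineages, Elane, Igll1, Cd3e, Cd3g, Cd8a, Mcpt8 and Fcer1a were at 0 in all 8 libraries, but Prtn3 (granulocytes and monocytes) was at 1371 to 2291, Lck (T lymphoid cells) at 112 to 294 and Cd79b (B lymphoid cells) at 87.4 to 256. The fourth library of each group lay between the others unusually often. Among the 7238 genes whose mean reached 100 normalised counts, WT4 lay inside the range of the other 3 libraries of its group for 75.5% and NA4 for 65.4%, against 37.6% to 51.3% for the other 6 libraries. Whether NA4 and WT4 are samples independent of the other 3 was not tested. If they are not, the SDs and p-values over 4 libraries are too small. Calls for the members and for the wider lists of genes by role are therefore given with and without NA4 and WT4. The groups also differed in sex-linked transcripts. Xist was at 869 to 1285 in the WT libraries and at most 2.80 in the NA libraries, and the Y-linked Ddx3y was at 281 to 668 in NA and at most 0.888 in WT, so genotype and sex cannot be told apart in any comparison below.

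The sequence before the transcription start is shown for the 4 members that passed the test, because they differed in their content of CG dinucleotides, which are dense in CpG island promoters. The runs were taken from RefSeq windows on GRCm38.p6, are written 5′ to 3′ on the strand of the gene, and carry each CG in capitals. The first pair belongs to the genes that rose in NA MPPs and the second pair to those that fell. The Foxo3 run stops where an annotated exon begins.
Pik3r1, chr13:101768218-101768467, minus strand: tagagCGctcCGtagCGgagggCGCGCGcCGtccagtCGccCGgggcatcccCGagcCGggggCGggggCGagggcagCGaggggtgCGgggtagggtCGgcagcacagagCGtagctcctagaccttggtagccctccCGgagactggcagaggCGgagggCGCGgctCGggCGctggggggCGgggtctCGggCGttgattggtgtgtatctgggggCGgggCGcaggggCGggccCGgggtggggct
Foxo3, chr10:42276756-42276945, minus strand: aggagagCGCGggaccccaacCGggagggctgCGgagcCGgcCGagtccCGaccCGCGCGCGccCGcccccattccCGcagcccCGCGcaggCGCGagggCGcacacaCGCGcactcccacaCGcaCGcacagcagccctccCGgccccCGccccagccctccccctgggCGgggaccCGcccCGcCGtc
Inpp5d, chr1:87620062-87620311, plus strand: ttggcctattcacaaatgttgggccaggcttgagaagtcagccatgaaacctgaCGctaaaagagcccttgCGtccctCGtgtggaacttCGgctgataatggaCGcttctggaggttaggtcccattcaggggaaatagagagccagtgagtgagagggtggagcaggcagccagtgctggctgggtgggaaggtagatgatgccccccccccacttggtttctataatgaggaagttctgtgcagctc
Pik3cd, chr4:149698709-149698958, minus strand: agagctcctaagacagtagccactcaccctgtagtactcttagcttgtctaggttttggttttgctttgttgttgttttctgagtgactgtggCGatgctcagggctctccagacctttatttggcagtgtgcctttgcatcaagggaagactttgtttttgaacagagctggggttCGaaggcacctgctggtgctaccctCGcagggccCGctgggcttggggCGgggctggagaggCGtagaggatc
The 250 bases before the start held 30 CG in Pik3r1 and 31 in Foxo3, of which the printed part holds 28. They held 5 CG in Inpp5d and 6 in Pik3cd, and the median over 32851 windows of the same length was 6. A window with at least 30 CG made up 5.94% of all windows. The contrast depends on the start that is used. RefSeq also gives a start of Pik3r1 whose window holds 6 CG, and a start of Pik3cd whose window holds 19 CG. Members that were not called held many CG too. The windows of Akt1 held 31 and 7 CG, and those of Foxo1, Pik3ca, Mtor and Tsc1 held 20, 19, 19 and 16. Whether CG content goes with the direction of change was not tested.

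Short motifs were counted in the 13 windows of the 9 members on both strands, and a match is only a match of letters. The FoxO core TGTTTAC was found in an Akt1 window, 161 bases before the start, and in 3.17% of all windows. The ETS motif CCGGAAGT was found in Mtor and Pik3ca windows and in 2.88% of all windows. The MEIS core TGACAG was found in the Foxo1 window and in 15.9% of all windows. The letters TGATTTA shared by PBX-HOX sites, present in 2.61% of all windows, and the CRE motif TGACGTCA, present in 1.55%, were in none of the 13.

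NA MPPs had more Pik3r1 and Foxo3 and less Inpp5d and Pik3cd than WT MPPs, while Pik3ca, Akt1, Tsc1, Mtor and Foxo1 did not pass the test. The changes that passed ran from -0.45 to 0.76 on the log2(normalised count + 1) scale. The test was limma across 11451 genes with Benjamini-Hochberg adjustment and a threshold of 0.05. The 4 called members are 44.4% of the 9. Over all tested genes 17.9% were called, 10.1% as higher and 7.87% as lower. The members were chosen with earlier results of these data known, so these shares are a description and not a test. In 3 members the NA and WT values were fully apart, namely Foxo3, Inpp5d and Pik3cd, against 22.0% of all tested genes. Without NA4 and WT4 none of the 9 members passed limma's test with Benjamini-Hochberg adjustment, while 4.52% of 11494 tested genes did. The count at an unadjusted p under 0.05 was 4 of 9 in that fit as in the fit of all 8 libraries. The share of all tested genes at that unadjusted threshold is not given here, so the count has nothing to be set against. A sorted pool gives RNA summed over cells, so a lower value can stand for fewer cells that express the gene or for less RNA in each, and these cannot be told apart.

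**Figure D1:**
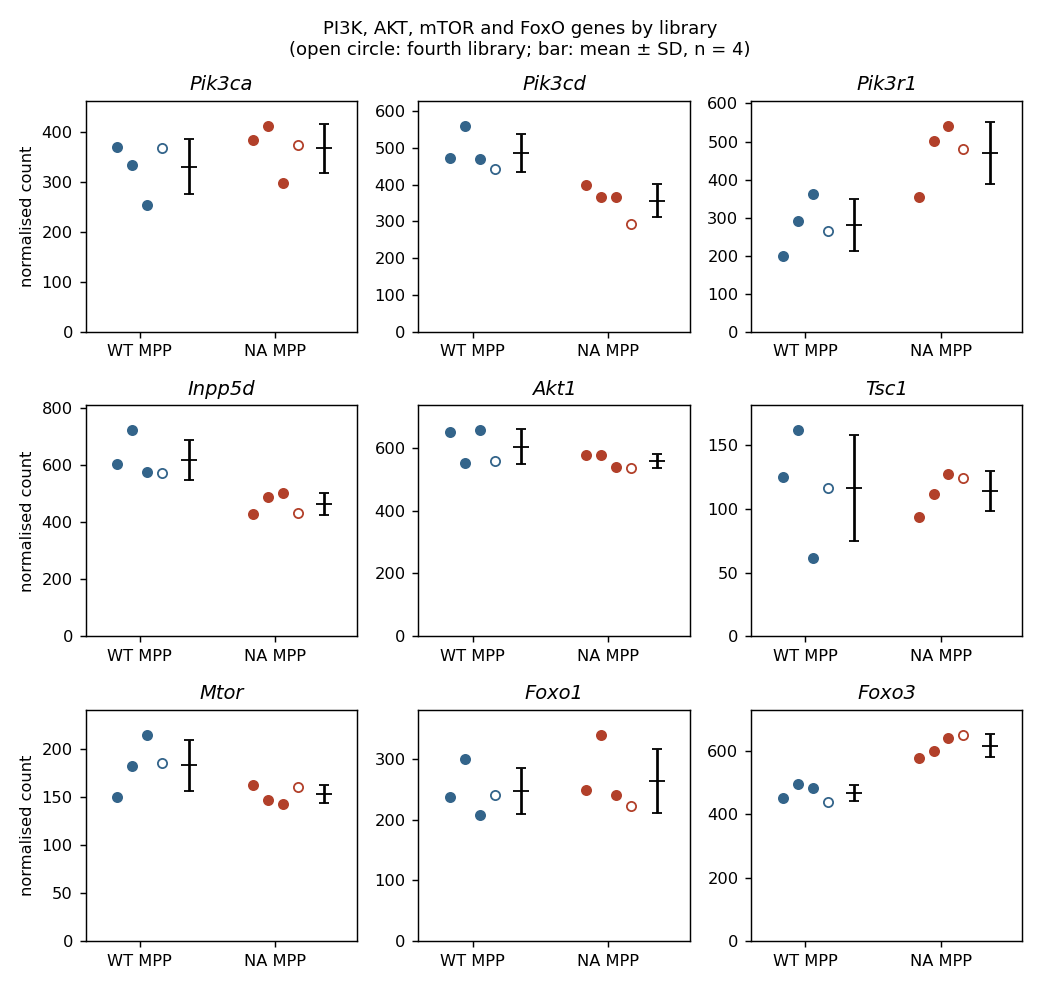
Normalised counts of the 9 members in each library (y axis, linear from 0), WT in blue and NA in red, with the fourth library of each group as an open circle and the bar as mean ± SD of 4. The NA values of Foxo3 lie above all WT values and those of Inpp5d and Pik3cd below them, while NA1 of Pik3r1 (355) lies just below WT3 (363).

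Levels between genes were compared per kilobase of exon in WT MPPs. Akt1 was highest with a mean of 147 normalised counts per kilobase, and Inpp5d (81.2), Pik3cd (77.7) and Foxo3 (61.7) followed. Pik3ca (36.4), Foxo1 (28.5) and Pik3r1 (27.7) formed the middle, and Mtor (18.1) and Tsc1 (9.82) were lowest. The ranges of neighbours overlapped between Inpp5d and Pik3cd, from Pik3ca down to Foxo1, from Foxo1 to Pik3r1 and from Pik3r1 to Mtor, so those places in the order are not settled by these libraries. In NA MPPs the mean of Foxo3 per kilobase (81.4) stood above those of Inpp5d (60.8) and Pik3cd (57.0), and that of Pik3r1 (46.6) above that of Pik3ca (40.4).

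Among the catalytic subunits, Pik3cd fell in NA MPPs while Pik3ca did not pass the test. Pik3cd (ENSMUSG00000039936, chr4:149649168-149702571, minus strand, GRCm38) encodes p110δ, the catalytic subunit most typical of white blood cells. It was at 473, 561, 469 and 441 normalised counts in WT1 to WT4 and 398, 367, 367 and 294 in NA1 to NA4. Every NA library lay below every WT library, and NA4 was the lowest of all. The means were 486 ± 51.7 for WT and 356 ± 44.0 for NA (SD over 4 libraries). The difference was -0.45 on the log2 scale (95% confidence interval -0.71 to -0.19, adjusted p = 0.0196, limma), which is a level 26.8% lower. The call was lost without NA4 (adjusted p = 0.0737), without WT2 (0.0543), without NA4 and WT4 (0.127, log2 difference -0.40), without the trend of variance on level (0.0599) and after removal of the GC trend of each library (0.0512), all by limma.

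Pik3ca (ENSMUSG00000027665, chr3:32397671-32468486, plus strand) encodes p110α, the catalytic subunit that acts in nearly all tissues. It was at 369, 333, 253 and 368 normalised counts in WT1 to WT4 and 385, 413, 298 and 373 in NA1 to NA4, with a low library in each group (WT3 and NA3). The log2 difference was 0.16 with an interval of -0.15 to 0.46 (adjusted p = 0.482, limma), and it was -0.00703 after removal of the GC trend. Of the other class I catalytic genes, Pik3cg, the p110γ gene of signalling below G protein-coupled receptors, ranged over 649 to 739.5 in WT and 639 to 868 in NA (log2 difference 0.03, -0.20 to 0.26). Pik3cb, the p110β gene, was at 14.2 to 18.2 in WT and 9.23 to 15.9 in NA, too low for a narrow interval (-1.12 to 0.54). Per kilobase, Pik3cd made up 38.7% ± 3.59 of the summed class I catalytic transcripts for WT and 30.8% ± 4.19 for NA (SD, n = 4). Pik3cg made up 42.1% ± 3.43 and 46.5% ± 3.85, and Pik3ca 18.1% ± 2.68 and 21.7% ± 1.85. Shares add up to the whole, so a lower share of Pik3cd raises the others.

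Pik3r1 had the largest rise of the 9. Pik3r1 (ENSMUSG00000041417, chr13:101680563-101768217, minus strand) encodes the regulatory subunits p85α, p55α and p50α, which hold the catalytic subunits stable and inhibited until a receptor binds. It was at 198, 291, 363 and 265 normalised counts in WT1 to WT4 and 355, 502, 542 and 479.5 in NA1 to NA4. WT1 was the lowest library, and 3 of the 4 NA libraries lay above all WT libraries while NA1 fell just under WT3. The means were 279 ± 68.3 for WT and 469.5 ± 80.8 for NA (SD over 4 libraries), 1.70-fold higher in the fit, with a log2 difference of 0.76 (95% confidence interval 0.39 to 1.14, adjusted p = 0.00875, limma). Adjusted p stayed between 0.00395 and 0.0331 when any single library was left out, and without NA4 and WT4 it was 0.0807 with a log2 difference of 0.73. Pik3r2, the p85β gene, was at 61.3, 60.0, 63.8 and 55.9 normalised counts in WT1 to WT4 and 50.4, 79.9, 54.5 and 68.5 in NA1 to NA4, with a log2 difference of 0.049 (-0.42 to 0.52, adjusted p = 0.903).

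A further measure moved with the members that rose, Pik3r1 and Foxo3. The summed level of 9 immediate early genes, which respond within minutes to growth factors and to handling of cells, was 3569 in WT1, 7262 in WT4, 10678 in WT3 and 12583 in WT2, against 35881 to 41445 in the NA libraries, and 7 of the 9 genes rose. WT1 and WT4 were the lowest WT libraries for Pik3r1 as well. They were also the lowest for Foxo3, at 450 and 439 normalised counts, against 494 in WT2 and 484 in WT3. The highest WT library was WT3 for Pik3r1 and WT2 for Foxo3. The part of this in the Pik3r1 and Foxo3 results was not tested.

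Inpp5d, a gene whose product removes PIP3, fell in NA MPPs. Inpp5d (ENSMUSG00000026288, chr1:87620312-87720507, plus strand) encodes SHIP1, a lipid phosphatase found mainly in blood cells. It was at 602, 721, 575 and 572 normalised counts in WT1 to WT4 and 428, 489, 500.4 and 431 in NA1 to NA4. The groups did not overlap, and WT2 was the highest library. The means were 617 ± 70.6 for WT and 462 ± 38.0 for NA (SD over 4 libraries). The log2 difference was -0.41 (95% confidence interval -0.64 to -0.19, adjusted p = 0.0163, limma), a level 25.0% lower. The call was lost by limma without NA4 (adjusted p = 0.059), without NA4 and WT4 (0.11, log2 difference -0.42) and without the variance trend (0.0566).

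Some markers of other blood lineages were lower in NA MPPs, as Inpp5d and Pik3cd were, and others gave no call. The summed level of 6 granulocyte and monocyte genes, most of it Prtn3, was 1745 to 2342 in WT and 1382 to 1695 in NA, and both tested genes of that list were lower, with Elane at 0. The summed level of 4 T lymphoid genes was 162 to 294 in WT and 112 to 187 in NA, all of it Lck, which was lower, with Cd3e, Cd3g and Cd8a at 0. Cd48, against which the cells were sorted, was at 34.2 to 83.8 in WT and 12.2 to 22.4 in NA. The summed level of 5 B lymphoid genes, most of it Cd79b, was 182 to 269 in WT and 101 to 239 in NA, and that of 4 megakaryocyte genes 155 to 221 and 146 to 216, with no gene of either list called by limma. The summed level of 5 erythroid genes, none high enough to be tested, was 11.4 to 107 in WT and 4.62 to 7.47 in NA. The part of these in the Inpp5d and Pik3cd results was not tested.

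Downstream of PIP3, Akt1 and Akt2 did not pass the test and the gene of their upstream kinase did. Akt1 (ENSMUSG00000001729, chr12:112653821-112674884, minus strand) encodes the most broadly expressed AKT kinase. It was at 649.8, 550.4, 656 and 558 normalised counts in WT1 to WT4 and 577, 575, 539 and 536 in NA1 to NA4, and the groups overlapped. The log2 difference was -0.11 with an interval of -0.32 to 0.10 (adjusted p = 0.452, limma), and 0.033 after removal of the GC trend. Akt2, known for its part in the insulin response, was at 481, 509.6, 578 and 479 normalised counts in WT1 to WT4 and 438, 452, 404 and 394 in NA1 to NA4. Its groups did not overlap, but it missed the threshold with a log2 difference of -0.28 (adjusted p = 0.0781, limma). Pdpk1, the PDK1 gene, was at 255, 268, 273 and 296 normalised counts in WT1 to WT4 and 431, 416, 418 and 477 in NA1 to NA4. Every NA library was above every WT library, and the log2 difference was 0.67 (adjusted p = 0.000738, limma). Pdpk1 was also called without NA4 and WT4 (adjusted p = 0.0198).

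The genes at the TSC and mTOR step gave no call for either member. Tsc1 (ENSMUSG00000026812, chr2:28641228-28691167, plus strand) encodes hamartin, which stabilises tuberin in the TSC complex. It was at 125, 162, 61.5 and 116 normalised counts in WT1 to WT4 and 93.3, 112, 127 and 124 in NA1 to NA4. The WT libraries alone spanned 61.5 to 162, wider than the NA libraries, so the interval of the log2 difference was broad (0.045, -0.49 to 0.58, adjusted p = 0.922, limma). Its sign changed when WT3 or NA3 was left out (-0.23 and -0.010) and with total count scaling (-0.023). Tsc2, the gene of tuberin, was at 368, 420.1, 371 and 373 normalised counts in WT1 to WT4 and 318, 277, 357 and 285 in NA1 to NA4. The groups of Tsc2 did not overlap, and its log2 difference of -0.31 had an adjusted p of 0.0765 by limma.

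Mtor (ENSMUSG00000028991, chr4:148448611-148557683, plus strand) encodes the kinase shared by the complexes mTORC1 and mTORC2. It was at 150.0, 182, 215 and 186 normalised counts in WT1 to WT4 and 162, 147, 143 and 161 in NA1 to NA4. WT1 lay within the NA values and the other 3 WT libraries lay above all of them. The log2 difference was -0.25 with an interval of -0.56 to 0.069 (adjusted p = 0.264, limma). Rptor, whose product defines mTORC1, was at 31.9 to 78.1 in WT and 41.1 to 66.7 in NA, with a log2 difference of -0.075. Rictor, whose product defines mTORC2, rose in NA MPPs. It was at 122, 117, 122 and 114 normalised counts in WT1 to WT4 and 173, 196, 234 and 208 in NA1 to NA4, with no overlap and a log2 difference of 0.76 (adjusted p = 0.00283, limma). Without NA4 and WT4 the Rictor difference was 0.73 with an adjusted p of 0.0624.

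Among the FoxO factors Foxo3 rose and Foxo1 did not pass the test. Foxo3 (ENSMUSG00000048756, chr10:42181841-42276755, minus strand) encodes a FoxO factor known for its part in keeping blood stem cells quiescent. It was at 450.1, 494, 484 and 439 normalised counts in WT1 to WT4 and 576, 599, 639.8 and 651 in NA1 to NA4. The groups did not overlap, and the spread inside each was small. The means were 467 ± 26.1 for WT and 616 ± 35.0 for NA (SD over 4 libraries), with a log2 difference of 0.40 (95% confidence interval 0.20 to 0.60, adjusted p = 0.00972, limma), a level 32.0% higher. Leaving out any single library kept adjusted p between 0.00977 and 0.0454, and without NA4 and WT4 the difference was 0.35 with an adjusted p of 0.149.

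Foxo1 (ENSMUSG00000044167, chr3:52268336-52353221, plus strand) encodes the FoxO factor with a large part in lymphoid development. It was at 238, 300.1, 208 and 241 normalised counts in WT1 to WT4 and 249, 340.3, 241 and 222 in NA1 to NA4. NA2 was the highest library and the groups overlapped, with a log2 difference of 0.084 and an interval of -0.25 to 0.42 (adjusted p = 0.744, limma). Without NA2 it was -0.046. Foxo1 shares 674 bases of exon with the antisense gene Gm20402, and whether counting used the strand is not given in the sources used here, but Gm20402 was at 0 in every library. Foxo4 was low, at 11.5 to 53.2 in WT and 19.7 to 31.4 in NA, and Foxo6 was at 0. Per kilobase Foxo3 made up 63.4% ± 5.06 of the Foxo1, Foxo3 and Foxo4 transcripts for WT and 68.7% ± 3.93 for NA (SD, n = 4), a difference close to the spread.

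**Figure D2:**
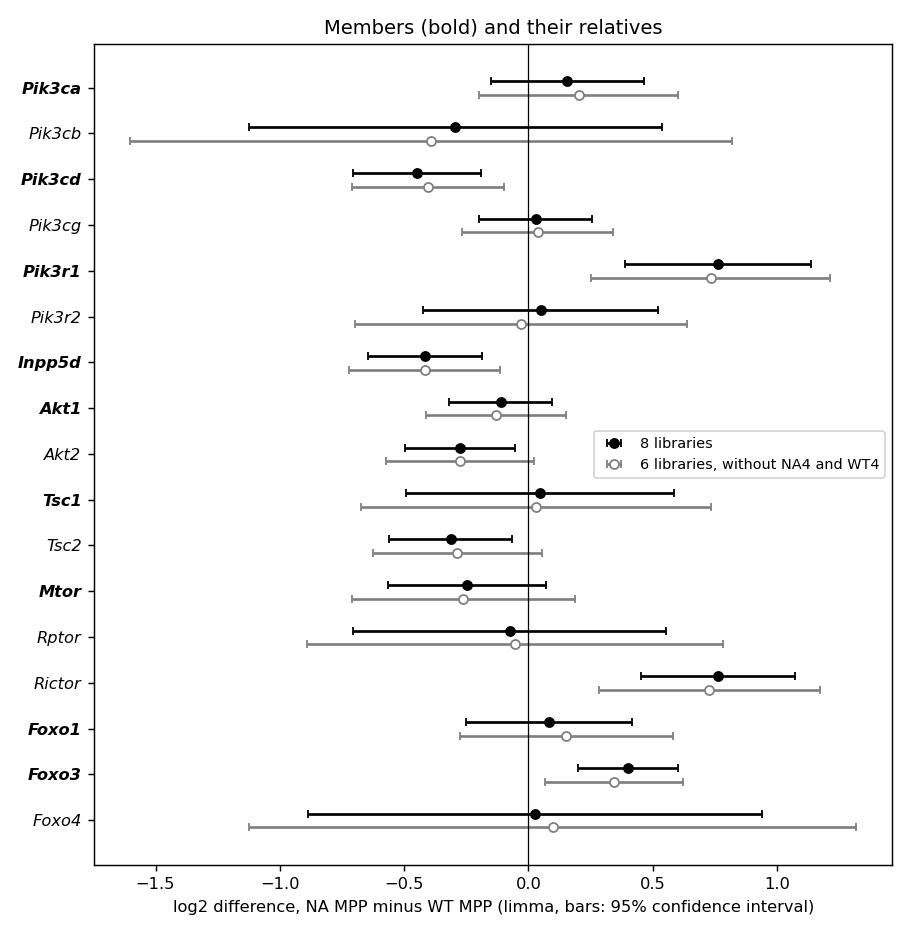
Log2 difference between NA and WT MPPs (x axis) with its 95% confidence interval for the 9 members (bold) and 8 relatives, in filled circles from all 8 libraries and in open circles without NA4 and WT4. The intervals of Pik3cd, Pik3r1, Inpp5d, Rictor and Foxo3 exclude 0 in both fits. The intervals are not adjusted for the number of tested genes, and none of these genes was called without NA4 and WT4. Intervals without NA4 and WT4 are wider for each of the 17 genes.

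Ratios of related genes were computed inside each library, where the scaling between libraries has almost no effect. The log2 ratio of Pik3r1 to Pik3r2 was 1.68, 2.26, 2.49 and 2.23 in WT1 to WT4 and 2.79, 2.64, 3.29 and 2.79 in NA1 to NA4. The groups did not overlap, and the mean difference was 0.71. The exact two-sided permutation test gave p = 0.0286, the smallest value that 4 against 4 allows, and 0.1 after adjustment over the 7 pairs tested. Pik3r1 had itself passed the test, so its ratio is not separate evidence.

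The log2 ratio of Pik3cd to Pik3ca was 0.36, 0.75, 0.89 and 0.26 in WT1 to WT4 and 0.048, -0.17, 0.30 and -0.34 in NA1 to NA4. NA3 (0.30) lay above WT4 (0.26), and the mean difference of -0.61 had an exact permutation p of 0.0571 (adjusted 0.133). Without NA4 and WT4 the Pik3cd to Pik3ca ratios did not overlap and the difference was -0.61. For Foxo3 to Foxo1 the mean log2 ratio was 0.93 ± 0.208 in WT and 1.24 ± 0.319 in NA (SD, n = 4), with overlapping groups and an exact permutation p of 0.2 (adjusted 0.28). The remaining pairs, Akt1 to Akt2, Tsc1 to Tsc2 and Mtor to Rptor, overlapped too, with differences of 0.16, 0.36 and -0.17 and adjusted exact permutation p of 0.2, 0.367 and 0.743. None of the pairs passed the exact permutation test after adjustment.

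**Figure D3:**
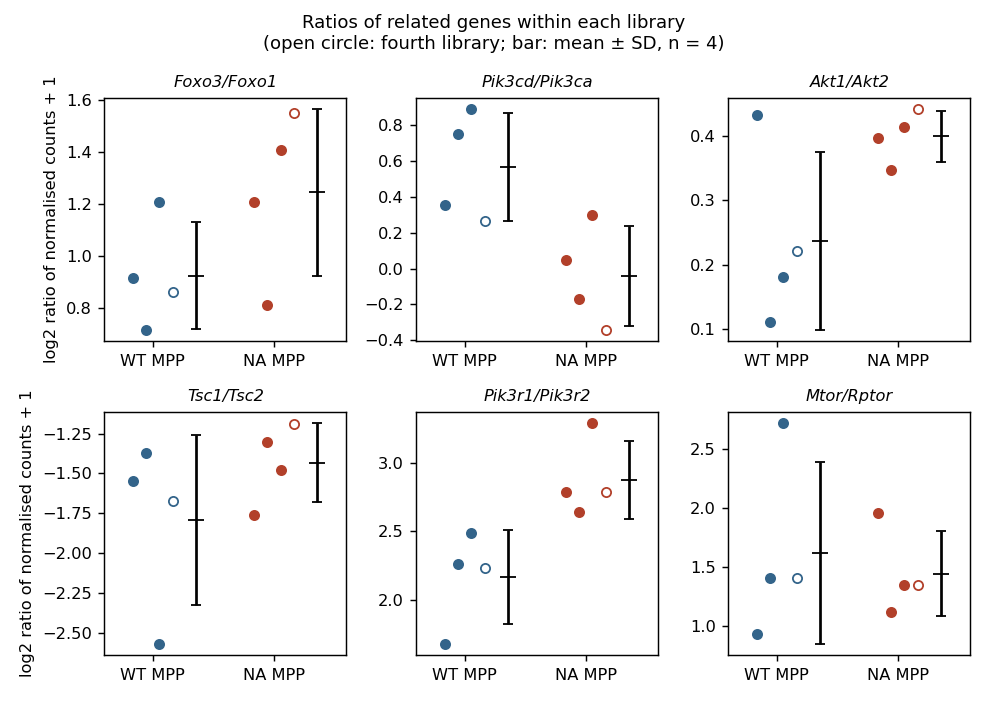
Log2 ratio of the normalised counts (plus 1) of related genes in each library (y axes, each on its own scale), WT in blue and NA in red, NA4 and WT4 as open circles, bars as mean ± SD of 4. The groups are apart for Pik3r1/Pik3r2 and overlap in the other 5 panels.

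The wider route was read from 14 lists of genes by role, with 144 genes listed and 133 tested. Of these, 18 rose and 9 fell in NA MPPs, together 20.3%. Leaving out the 9 members, 16 of 124 were higher and 7 lower, together 18.5%, close to the 17.9% of all tested genes. The median log2 difference of the 133 was 0.0045, beside -0.011 over all tested genes. With NA4 and WT4 left out, 9 of the 133 were called, all higher, namely Shc1, Pdpk1, Gsk3b, Ywhaz, Cdkn1b, Ccng2, Cat, Gadd45a and Ccnd2. In that fit 4.52% of all tested genes were called, and 72.3% of their calls were higher, against 56.1% with all 8 libraries. None of the 133 was called lower by limma without NA4 and WT4, while 9 were lower at an unadjusted p under 0.05. For that unadjusted threshold the share of all tested genes is not given here. Genes beyond the largest rise and fall of each list were named after their values were seen. The lists were chosen with earlier results of these data known, so the share called in each list is a description.

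**Figure D4:**
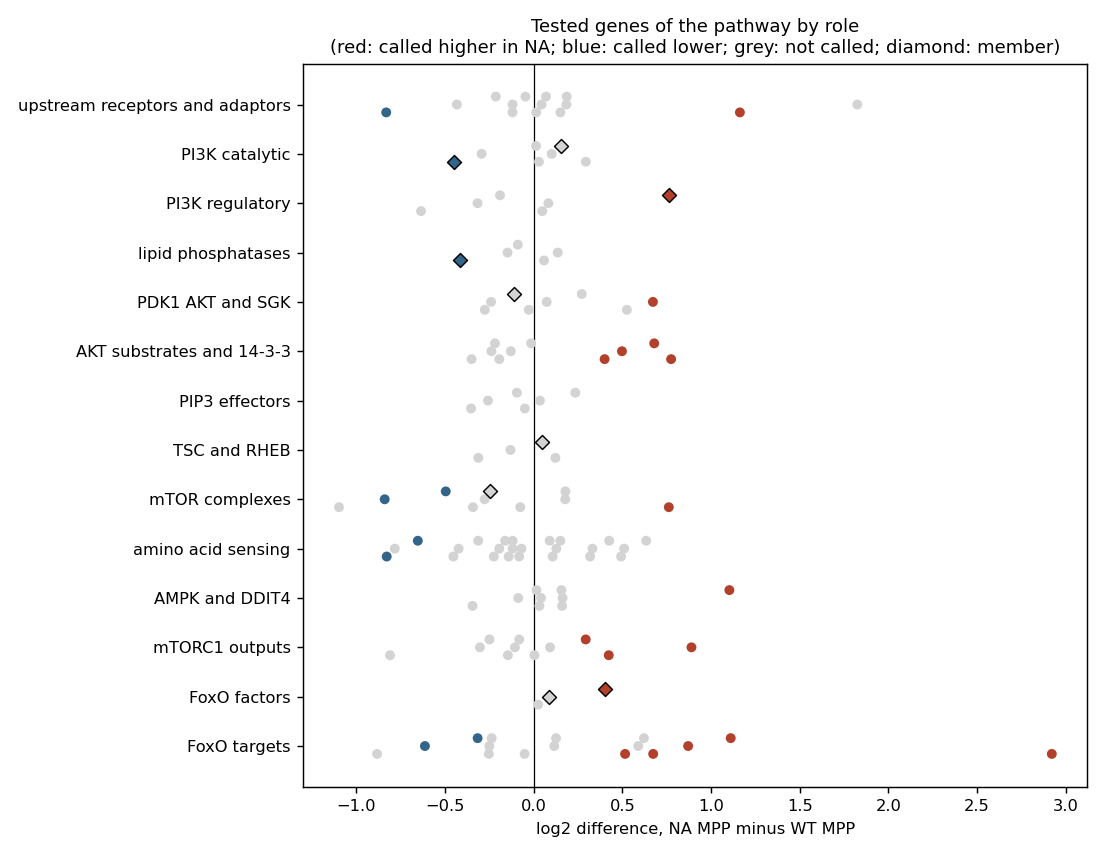
Log2 difference between NA and WT MPPs (x axis) of each tested gene of the 14 role lists, red where called higher, blue where called lower, grey where not called, with diamonds for the 9 members. Called genes are spread over 12 of the 14 lists, and Gadd45a at 2.92 lies farthest to the right.

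Upstream of PI3K, 14 genes were tested and 2 passed (14.3%, beside 17.9% of all tested genes). Shc1, an adaptor that links receptors to GRB2, was at 109, 108, 106 and 112 in WT1 to WT4 and 257, 191, 313 and 233 in NA1 to NA4. The WT values of Shc1 were nearly equal, all NA values lay far above them, and the log2 difference was 1.16 (adjusted p = 0.000274, limma). Dok2, an adaptor that restrains signalling in blood cells, ranged over 147 to 262 in WT and 69.6 to 132 in NA, with a log2 difference of -0.83 (adjusted p = 0.0238; 0.154 without NA4 and WT4, limma). The receptor genes Kit and Flt3 did not pass, with log2 differences of 0.19 and 0.07. Pik3cd alone was called among 7 catalytic genes (14.3%), Pik3r1 alone among 6 regulatory genes (16.7%), and Inpp5d alone among 5 lipid phosphatases (20%). These shares were near the 17.9% of all tested genes.

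Of 10 AKT substrates and genes of the phosphoserine-binding YWHA adaptors, which hold phosphorylated FoxO and other proteins in the cytoplasm, 4 were called (40.0%), all of them higher. The share over all tested genes was 17.9%, with 10.1% called higher. Ywhaz was at 1214, 1619, 1403 and 1398 normalised counts in WT1 to WT4 and 2189.9, 2309, 2809.6 and 2331 in NA1 to NA4, a log2 difference of 0.78 (adjusted p = 0.00017, limma). Gsk3b, a kinase that AKT inhibits, was at 289, 343, 276 and 301 normalised counts in WT1 to WT4 and 519, 496, 401 and 528 in NA1 to NA4, a log2 difference of 0.68 (adjusted p = 0.00172, limma). Both had groups that did not overlap and were called without NA4 and WT4 as well. Ywhag and Ywhab rose by 0.50 and 0.40, but neither was called without NA4 and WT4 (adjusted p = 0.064 and 0.109, limma). Ywhae, Ywhah and Ywhaq had log2 differences of -0.13, -0.19 and -0.22 and were not called.

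Around mTOR, 3 of 10 genes of the complexes were called (30%), beside 17.9% of all tested genes. Besides Rictor, these were Mlst8, a subunit of both complexes, with a log2 difference of -0.84 (adjusted p = 0.0454, limma), and Tti1, which helps assemble mTOR and related kinases, with -0.50 (adjusted p = 0.0424). Mlst8 ranged over 43.0 to 72.9 in WT and 27.2 to 46.2 in NA, so its groups overlapped. Without NA4 and WT4 neither Mlst8 nor Tti1 was called (adjusted p = 0.304 and 0.252, limma). Of 24 genes of amino acid sensing, 2 were called (8.33%), both lower. These were Lamtor4 and Lamtor1, subunits of the Ragulator complex that holds mTORC1 at the lysosome. Lamtor4 was at 257, 256, 198 and 219 normalised counts in WT1 to WT4 and 128, 148, 161 and 93.3 in NA1 to NA4, a log2 difference of -0.83, and Lamtor1 fell by 0.65 (adjusted p = 0.00592 and 0.0117, limma). Neither was called without NA4 and WT4 (adjusted p = 0.0654 and 0.116).

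Of 9 genes of AMPK and DDIT4, Prkaa2, a catalytic subunit of the energy sensor AMPK, alone was called (11.1%). It was low in both groups, at 13.3 to 22.6 in WT and 27.1 to 52.6 in NA, with a log2 difference of 1.10 (adjusted p = 0.0364; 0.224 without NA4 and WT4, limma). Of 11 outputs of mTORC1, 3 were called (27.3%, beside 17.9% of all tested genes), all of them higher. Eif4ebp2, a repressor of cap-dependent translation that mTORC1 inactivates, had a log2 difference of 0.89, with 62.1 to 125 in WT and 116 to 205 in NA. Rps6kb1, the S6 kinase that mTORC1 activates, had 0.42, and Eif4b, a translation factor that S6 kinase phosphorylates, 0.29. Without NA4 and WT4 none of Eif4ebp2, Rps6kb1 and Eif4b was called (adjusted p = 0.116, 0.144 and 0.124, limma). No gene passed among 4 of TSC and RHEB or among 6 effectors of PIP3 such as Btk and Vav1. In each of these lists 1 gene had an unadjusted p under 0.05 by limma, a count given without the share of all tested genes.

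The FoxO target list had 7 of 16 tested genes called (43.8%), 5 higher and 2 lower. Over all tested genes 17.9% were called, 10.1% as higher and 7.87% as lower. Gadd45a, a stress-induced growth arrest gene, was at 15.1, 12.5, 31.9 and 22.2 in WT1 to WT4 and 137, 167, 138 and 168 in NA1 to NA4. Its lowest NA library stood far above its highest WT library, and the log2 difference was 2.92 (95% confidence interval 2.31 to 3.53, adjusted p = 1.41e-05, limma). Cat, the gene of catalase, which breaks down hydrogen peroxide, was at 487, 412, 605 and 495 normalised counts in WT1 to WT4 and 1096, 1029, 1132 and 1029 in NA1 to NA4, a log2 difference of 1.11 (adjusted p = 1.67e-05, limma).

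Cdkn1b, which encodes the cell cycle inhibitor p27Kip1, was at 137, 129, 199 and 164 normalised counts in WT1 to WT4 and 409.8, 242, 253 and 261 in NA1 to NA4. NA1 was the highest library for Cdkn1b, and the log2 difference was 0.87 (adjusted p = 0.00597, limma). Ccng2, the gene of cyclin G2, which is tied to cell cycle arrest, was at 624 to 698 in WT and 1007 to 1114 in NA, a log2 difference of 0.67. Ccnd2 rose too, by 0.52, although its product cyclin D2 drives the cycle and FoxO factors are known to repress it. These 5 genes were the ones of the list that were called without NA4 and WT4, with adjusted p from 0.000586 (Cat) to 0.042 (Cdkn1b) by limma. Among the WT libraries Gadd45a was lowest in WT2 and next lowest in WT1, where the summed immediate early genes were highest and lowest. Both Gadd45a and that sum were higher in every NA library than in any WT library. The part of the immediate early genes in the target results was not tested.

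Of the FoxO targets that fell, Txnip, whose product inhibits thioredoxin and glucose uptake, was at 3781 to 4937 in WT and 3238 to 3600.4 in NA, a log2 difference of -0.32 (adjusted p = 0.0188, limma). Of the targets that did not pass, Klf2 was at 173, 2317, 1414 and 988 in WT1 to WT4 and 702, 1025, 1222 and 908 in NA1 to NA4, and Trib1 at 16.9, 215, 108 and 94.1 in the WT and 60.7, 136, 203 and 118 in the NA libraries, in the same order. For both genes WT1 was the lowest and WT2 the highest of the 8 libraries, as they were among the WT libraries for the summed immediate early genes, so the WT spread spanned the NA values. Sgk1, a kinase related to AKT, showed the same order of WT1 and WT2, at 54.2 and 381. Bcl2l11, Bbc3 and Sod2, also counted as FoxO targets, had log2 differences of 0.12, -0.88 and -0.25 and were not called.

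**Figure D5:**
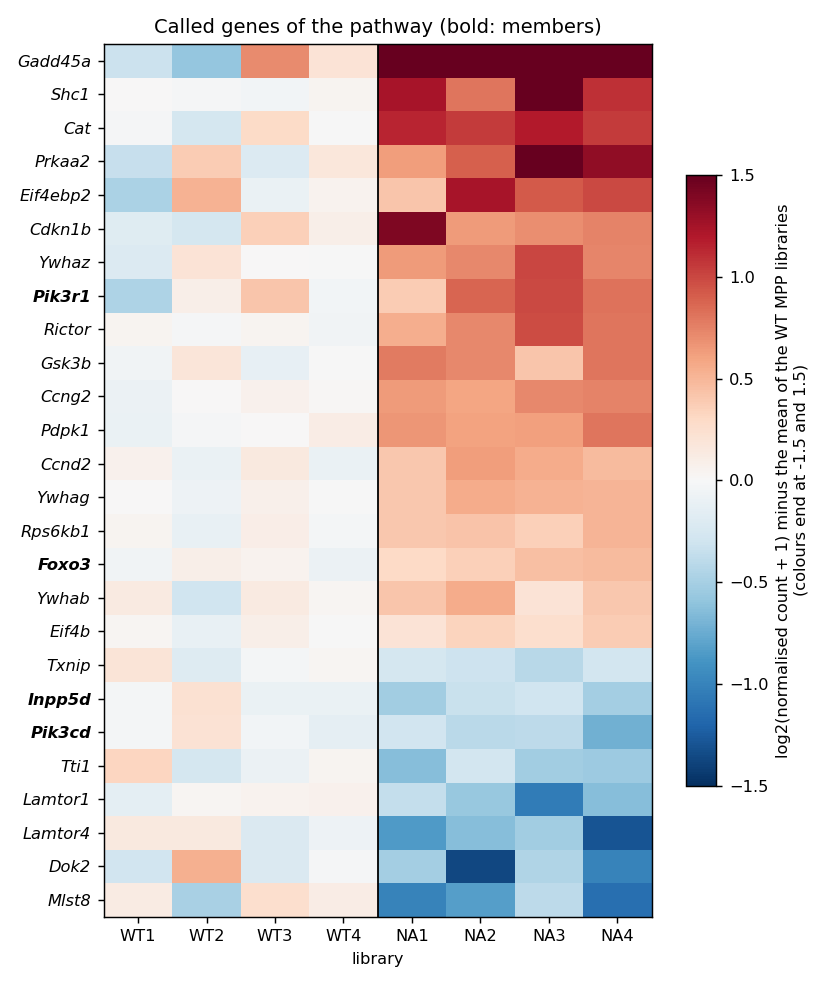
Called genes of the role lists (rows, members in bold) in each library (columns), as log2(normalised count + 1) minus the mean of the WT libraries, red for higher and blue for lower, with colours ending at -1.5 and 1.5. The 18 genes called higher stand above 8 called lower, WT1 to WT3 scatter around 0 in several rows such as Pik3r1 and Dok2, and WT4 stays near 0.

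The genes whose pattern over the 8 libraries was most like that of each called member were found by Pearson's r of log2 values, among tested genes averaging 50 or more normalised counts. The 8 points come from both genotypes and share the scaling of each library, so r reflects the difference between groups as well as the spread inside them, and it is given as a description. For Foxo3 the nearest were Triqk (r = 0.989), Bcl2l2 (0.987) and Bcas2 (0.981). For Pik3r1 they were Zfp91 (0.985), Arf1 (0.981) and Tceal9 (0.973), for Inpp5d Oaz1 (0.975), Acot7 (0.972) and Dynll1 (0.97), and for Pik3cd Trmt2a (0.978), Med15 (0.977) and Eng (0.976). Bcl2l2, a survival gene of the BCL2 family, had a mean of 53.1 normalised counts in WT and 109.6 in NA, a log2 difference of 1.03. Eng, the gene of the TGF-beta co-receptor endoglin, had means of 501 and 375, a log2 difference of -0.42.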

How the data were processed

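RNA-Seq libraries of 1000 sorted MPPs each were grouped by their GEO labels into 4 NA and 4 WT libraries. Per the submitters' processing notes, bcl2fastq, RSEM and DESeq2 were used with build mm10, and versions and strand use are not given in the sources used here. The deposited values were made by the authors as estimated gene counts divided by a size factor for each library, so the signal is a normalised count and not a raw count: 98.3% to 99.0% of low values lay within 0.05 of a whole multiple of the value of 1 read. That value and the column total gave the estimated depth, 3876906 to 4916987 reads. It could not be recovered for every gene, since RSEM splits reads between genes, so no count model was run.

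The fit used limma 3.58.1 in R 4.3.3 with a mean-variance trend on log2(normalised count + 1). A gene entered the test if 4 or more libraries reached 10 normalised counts, and Benjamini-Hochberg adjustment covered all tested genes. The fit was tested on simulated data with known changes. Ratios of related genes were tested by exact permutation over 70 assignments of the libraries. Levels per kilobase used exon unions of GENCODE M21 (GRCm38), and promoter windows came from RefSeq (GRCm38.p6), where all 9 members had a window. Alternatives covered filters, pseudocounts of 0.5 and 5, scaling, the variance trend, depth, GC content, the replicate number as a block and left-out libraries. Named were the members, their relatives, the called gene with the largest rise and with the largest fall of each role list, and the 3 genes most like each called member. The members and lists were chosen with earlier results of these data known. The listed FoxO target Cdkn2d was not analysed here, and some genes are not reported here. Dixon's test on the 9 members and 7 ratios, 32 groups of 4 libraries, found no outlying value. It looked at each gene or ratio by itself, with a critical value of 0.829 for 4 samples. It therefore cannot show whether a library stands apart across genes.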

Additional observations from a re-analysis of the deposited data

How the results depend on the processing

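The call of 4 members held with no filter, a stricter filter, both pseudocounts, TMM, upper quartile and total count scaling, the depth class as a covariate and the replicate block. It fell to 3 members with the GC trend removed, with and without the block, and to 2 without the variance trend (Pik3r1 and Foxo3). By limma with Benjamini-Hochberg adjustment it fell to 0 when NA4 and WT4 were left out. In that fit 4 members had an unadjusted p under 0.05, a count given without the share of all tested genes. Leaving out single libraries gave 2 to 4 members, the lowest without NA4. For the role lists, where 27 genes were called, leaving out NA4 and WT4 gave 9, and leaving out single libraries gave 20 to 29. Of the 27 genes, 18 were called in every fit that left out 1 library.

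The log2 difference of Pik3ca turned to -0.00703 and that of Akt1 to 0.033 when the GC trend of each library was removed, with and without the block. That of Tsc1 turned to -0.0227 with total count scaling. Leaving out single libraries moved Foxo1 between -0.0458 and 0.181 and Tsc1 between -0.23 and 0.231. None of these 4 genes was called under any alternative, and the cause was not tested.

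Whether libraries with the same replicate number are pairs was not given. Deviations from the group means of libraries with the same number correlated at 0.157, -0.00288, 0.0183 and 0.315 across genes. Between libraries of different number the correlations ran from -0.165 (NA3 and WT1) to 0.203 (NA3 and WT2). NA4 and WT4 thus had the highest correlation of all. With the replicate block 2004 genes were called in place of 2053, and 25 of the role lists. For the ratios of related genes, the groups did not overlap in 2 pairs. In the paired form, with the block, 4 pairs had all 4 differences of the same sign, but 0.125 is the smallest p of the exact sign-flip test over 4 pairs. With the GC trend removed 0 pairs were without overlap, and leaving out single libraries gave 2 to 3.

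Over all tested genes, leaving out NA4 and WT4 gave 519 calls, leaving out NA4 1106 and WT4 1294, and dropping the variance trend 1420. Total count scaling moved the share of calls that were higher in NA from 56.1% to 41.3%. Planned fits with edgeR and DESeq2 were not run, because whole reads could not be recovered for every gene. Depth limits low genes such as Pik3cb, Prkaa2, Foxo4 and Mlst8, with group means of 13.3 to 62.0 normalised counts.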
